A study of Mus musculus with 380 samples.

Results

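Regulatory T cells taken from B16F10 tumours, a melanoma line grown in C57BL/6 mice, were compared between a plate labelled knockout (KO) for Il27ra and a wild type (WT) plate. The cells were single CD4 T cells profiled by Smart-seq2, a plate-based protocol that reads the whole transcript. Cells were selected on 2 measured values: a cell was taken when it had at least 1000 genes above 1 FPKM (fragments per kilobase of transcript and sequencing depth, scaled between libraries by the authors) and Foxp3 above 1 FPKM. This gave 69 cells, 42 on the KO-labelled plate and 27 on the WT plate. They came from 73 KO-labelled and 79 WT CD4 cells with enough genes, out of 94 single cells on each of these plates and of 4 such plates in the series. Because Foxp3 and the number of genes chose the cells, both are described here without a test.

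Mice of both genotypes carried the same tumour, and the labels give no age, sex, treatment or sort gate. Each label is 1 plate, and its titles share 1 code, KO4 or WT4, which is read here as that of a mouse. Titles of the WT CD4 cells contain rabbit and p2, and those of the KO-labelled CD4 cells cat and p1, with no label explaining these codes. Titles of the WT CD8 plate, not used here, contain p1. Genotype, animal and plate therefore cannot be told apart, the cells do not stand in for animals, and no p-value is given for any difference. The treatment protocol speaks of CD8+ cells alone although the titles of both plates say CD4. Differences are means over cells of log2(FPKM + 1), KO-labelled minus WT, a scale that compresses the change of low genes. Intervals of shares are 95% Clopper-Pearson intervals and cover counting error only.

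Regulatory T cells restrain immune responses and depend on the transcription factor Foxp3. They carry the high-affinity interleukin-2 (IL-2) receptor and CTLA-4, and in tumours they limit the attack of effector T cells. IL-27 signals through Il27ra and the shared chain gp130, the kinases JAK1, JAK2 and TYK2, and STAT factors such as STAT3. In mouse regulatory T cells it is known to promote T-bet and CXCR3, and in other T cells IL-10 and several inhibitory receptors. SOCS proteins are made after cytokine signalling and shut it down again.

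Foxp3 in the selected cells ranged over 1.13 to 1719 FPKM on the KO-labelled plate, with a median of 809, and over 2.42 to 2128 FPKM on the WT plate, with a median of 917. Just inside the threshold were KO-labelled cells at 1.13, 13.8 and 52.8 FPKM and WT cells at 2.42, 320.5 and 392.9 FPKM. Just outside it, the highest unselected cell had 0 FPKM on the KO-labelled plate and 0.06 FPKM on the WT plate. Nearly all selected cells therefore lay far from the cut, and 0 cells with Foxp3 were lost to the limit on genes on either plate.

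**Figure D1:**
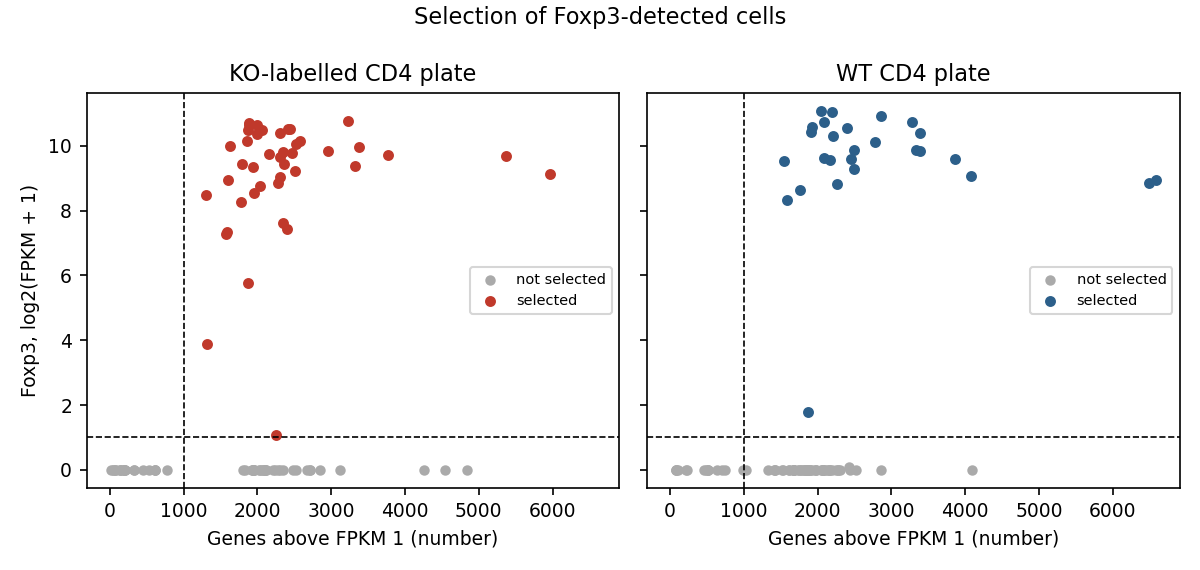
Foxp3 (log2(FPKM + 1)) against the number of genes above 1 FPKM in every sequenced CD4 cell, KO-labelled plate on the left and WT plate on the right. Coloured points are the 42 KO-labelled and 27 WT cells selected, grey points are the others, and dashed lines are both thresholds. Most selected cells sit well above the Foxp3 threshold, and the 1 WT cell between 0 and 1 FPKM had 0.06 FPKM.

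The other marker genes, which the selection did not use, were those of regulatory T cells. At least 1 of Il2ra, Ctla4 and Tnfrsf4 (OX40, a co-stimulatory receptor) was above 1 FPKM in 42 of the 42 KO-labelled and 27 of the 27 WT cells. All 3 were detected together in 66.7% of the KO-labelled and 74.1% of the WT cells, against 3.23% and 3.85% of the CD4 cells without Foxp3 on the same plates. At least 5 of the 6 core genes Il2ra, Ctla4, Tnfrsf4, Tnfrsf18 (GITR), Ikzf2 (Helios) and Icos were found in 83.3% of the KO-labelled cells (68.6 to 93.03) and 85.2% of the WT cells (66.3 to 95.8). In cells without Foxp3 the shares were 6.45% and 3.85%. At lower cuts these cells were less distinct. At least 4 of the 6 were found in 29.03% of them on the KO-labelled and 15.4% on the WT plate. At least 2 of Il2ra, Ctla4 and Tnfrsf4 were found in 32.3% and 19.2%. Some may thus be regulatory T cells in which Foxp3 was missed, which was not tested. The label of regulatory T cells fitted the markers of the selected cells on both plates.

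Cd4 was found in 34 of the 42 KO-labelled cells (80.95%, 65.9 to 91.4) and in 26 of the 27 WT cells (96.3%, 81.03 to 99.9). A CD3 chain was found in 97.6% of the KO-labelled and 100% of the WT cells. Cd4 and Cd8a occurred together in 1 KO-labelled and 2 WT cells. The number of genes above 1 FPKM ran from 1302 to 5961 in KO-labelled cells, with a median of 2267.5, and from 1547 to 6578 in WT cells, with a median of 2404. The libraries thus overlapped widely, with the WT cells somewhat richer in genes. Pairing cells of like gene number, at most 0.2 log2 units apart, gave 25 matched pairs with medians of 2308 genes in KO-labelled and 2261 in WT cells.

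Il27ra itself was still detected in cells of the KO-labelled plate. It was above 1 FPKM in 24 of the 42 KO-labelled cells (57.1%, 40.96 to 72.3) and in 13 of the 27 WT cells (48.1%, 28.7 to 68.1), with highest values of 536 and 378.9 FPKM. The mean difference was 0.31 in all cells and 1.19 in matched cells. The CD4 population wells, 1 library of many cells per plate, went the other way, with 72.7 FPKM on the KO-labelled plate and 243.4 FPKM on the WT plate. In such a well, fewer expressing cells and less RNA per cell cannot be told apart. Values per gene do not show which exons the reads covered, and no label says which part was deleted, so the gene did not check the label. The group is called KO-labelled for this reason.

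Across the 5446 genes detected in at least 20% of the cells of 1 plate, most genes past a log2 difference of 1 were lower on the KO-labelled plate. Of the 5446, 3.56% were higher by 1 or more and 1143 (21%) were lower, and the median of all genes was -0.39. In matched cells 532 genes were higher (9.77%) and 742 lower (13.6%), around a median of -0.11. After subtraction of the median, 456 genes were higher and 520 lower, so that the higher ones made up 46.7% of those past 1, against 14.5% before. Genes past 1 in both all and matched cells made up 3.16% of all on the higher side and 12.01% on the lower side. In what follows, a negative difference smaller than the median of all genes is within the general shift. For the gene lists, genes found in 10% of the cells of 1 plate were kept, 8259 in all, of which 2.45% were higher and 14.3% lower by 1 or more, with a median of -0.29 in all cells and -0.09 in matched cells. Of these genes 30.98% had a difference above 0 and 69.02% one below 0, so the counts of higher and lower genes in a list are read against these shares.

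**Figure D2:**
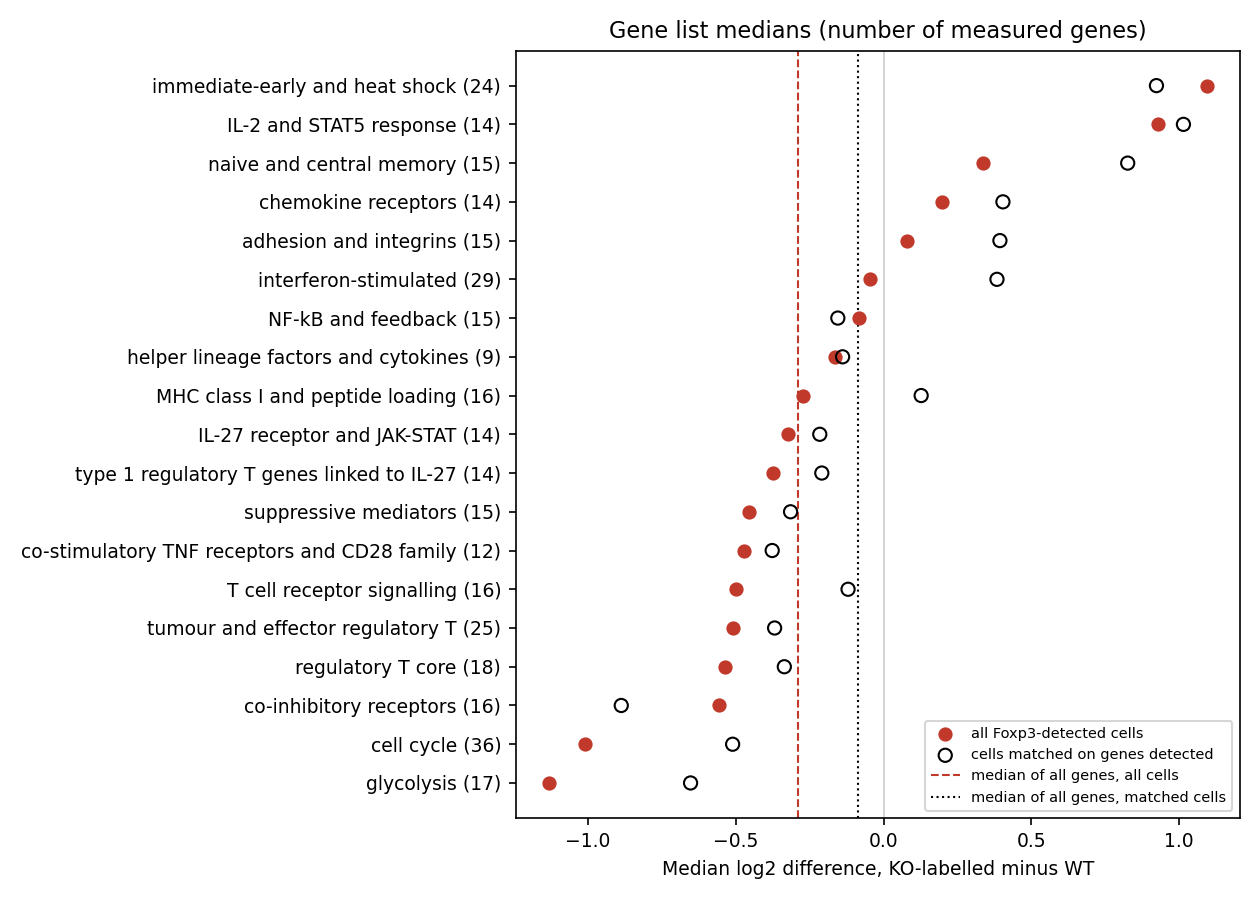
Median log2 difference, KO-labelled minus WT, of 19 gene lists in all Foxp3-detected cells (filled) and in matched cells (open), with the number of measured genes in parentheses. Dashed and dotted lines are the medians of all genes. Immediate-early and heat shock genes and IL-2 response genes lie farthest to the right, at 1.09 and 0.93, and cell cycle and glycolysis genes farthest to the left, at -1.01 and -1.13.

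Feedback inhibitors of cytokine signalling were higher in KO-labelled regulatory T cells. Cish, which restrains IL-2 receptor signalling, was found in 36 of the 42 KO-labelled cells (85.7%, 71.5 to 94.6) and 18 of the 27 WT cells (66.7%, 46.04 to 83.5). Its values ran from 0 to 4084 FPKM around a median of 1062 in KO-labelled cells, and from 0 to 2497 FPKM around a median of 408 in WT cells. The ranges overlapped, and the log2 difference was 2.70 in all cells and 3.10 in matched cells.

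Socs1, an inhibitor of JAK kinases, was found in 61.9% of the KO-labelled cells (45.6 to 76.4) and 29.6% of the WT cells (13.8 to 50.2). Its median was 50.1 FPKM in KO-labelled cells and 0 in WT cells, its highest values were 707 and 388 FPKM, and its difference was 2.80. Socs3, which blocks signalling through gp130 and was chosen after its values were seen, was found in 59.5% of the KO-labelled cells (43.3 to 74.4) and 40.7% of the WT cells (22.4 to 61.2). Its difference was 2.18, and 2.53 in matched cells. At least 2 of these 3 genes, a combination also chosen after seeing the values, occurred in 76.2% of the KO-labelled cells (60.5 to 87.9) and 44.4% of the WT cells (25.5 to 64.7). The matched shares were 80% and 48%.

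The list of 14 genes of the IL-27 receptor and its JAK-STAT pathway holds these 3 inhibitors. Its median was -0.32, near the -0.29 of all genes, and 7 of the 14 lay above the latter. Its members lay on both sides: 5 were higher, 4 of them by 1 or more, and 9 lower, 4 of them by 1 or more. Of all genes, 2.45% were higher and 14.3% lower by 1 or more. Stat3 had a median of 25.0 FPKM in KO-labelled cells and 144.8 FPKM in WT cells and a difference of -1.66, or -0.91 in cells with at least 2000 genes. The kinase genes Tyk2 and Jak1 had -1.22 and -1.02, and Tyk2 had -0.83 in cells with at least 2000 genes. Irf9, part of the transcription factor complex that interferons induce, had 1.31. The Jak1 difference was -0.01 in matched cells, so it did not hold at like gene number.

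Ptpn2, a phosphatase that removes phosphate from JAK and STAT proteins, was also among the 12 genes with the highest differences. It was found in 59.5% of the KO-labelled cells (43.3 to 74.4) and 29.6% of the WT cells (13.8 to 50.2), with highest values of 398 and 131.99 FPKM and a difference of 2.58. In the population wells it stood at 73.9 FPKM on the KO-labelled plate and 71.7 FPKM on the WT plate. The wells thus did not show the Ptpn2 difference, whereas they did show that of Cish (1224 and 521 FPKM) and of Socs1 (154.3 and 35.7 FPKM).

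Starts of these genes were searched for the letters that STAT dimers are known to bind, TTCNNNGAA, and for those bound by CREB, TGACGTCA, on both strands. The motifs read the same on both strands. A STAT match and a CREB match cannot overlap, STAT matches can overlap each other, and a window was counted once however many it held. Sequences are from RefSeq (GRCm38.p6), 250 bases before to 50 after each gene's start. Socs1, with a difference of 2.80, held 0 matches of either motif in its window. The following stretches of 30 bases around the STAT matches of Cish, at the start of the gene, and of Socs3, upstream of it, were chosen after the values were seen and are shown because both genes were among those with high differences, with the matches in capitals.
Cish, chr9:107296654-107296683, + strand: cagttTTCCTGGAAagTTCTTGGAAatctg
Socs3, chr11:117969501-117969530, - strand: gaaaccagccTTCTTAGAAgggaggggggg

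The STAT letters occurred in 8.30% of 32851 windows of all genes. Of the 12 highest genes, 7 had windows, and 3 of their 8 windows (37.5%) held a match, those of Cish, Gzmb and Zfp868. Of the 12 lowest genes, 8 had windows, and 2 of 10 windows (20%) held one, those of Fas and Nkg7. A match is a description of letters and not of binding.

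Genes of the IL-2 response were higher as a list. Of 14 measured genes, 10 were higher, 7 of them by 1 or more, and the median was 0.93 in all cells and 1.01 in matched cells. In CD4 cells without Foxp3 the median of the list was 1.24, and between the wells it was 0.60. The difference was thus not particular to cells in which Foxp3 was detected. Il2ra, the high-affinity receptor chain, was found in 38 of the 42 KO-labelled cells (90.5%, 77.4 to 97.3) and 22 of the 27 WT cells (81.5%, 61.9 to 93.7). It ran from 0 to 866 FPKM around a median of 182.6 in KO-labelled cells, and from 0 to 386 FPKM around a median of 59.7 in WT cells. The difference was 1.20, and 1.6 in matched cells. The groups overlapped, and the cells with the highest values were KO-labelled.

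Other chains of the same receptor did not follow Il2ra. Il2rb, the signalling chain shared with IL-15, was found in 92.9% of the KO-labelled and 100% of the WT cells and had a difference of -1.38, or -0.80 in matched cells and -0.67 in cells with at least 2000 genes. Il2rg, the common chain, had 0.25. The survival gene Bcl2l1 had -1.58, with 47.6% of the KO-labelled and 66.7% of the WT cells positive. Among IL-2 targets chosen after their values were seen, Myc had 1.72 and the kinase gene Pim1 had 1.46. In cells with at least 2000 genes the median of the list was 0.40, its lowest value under any alternative tried.

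**Figure D3:**
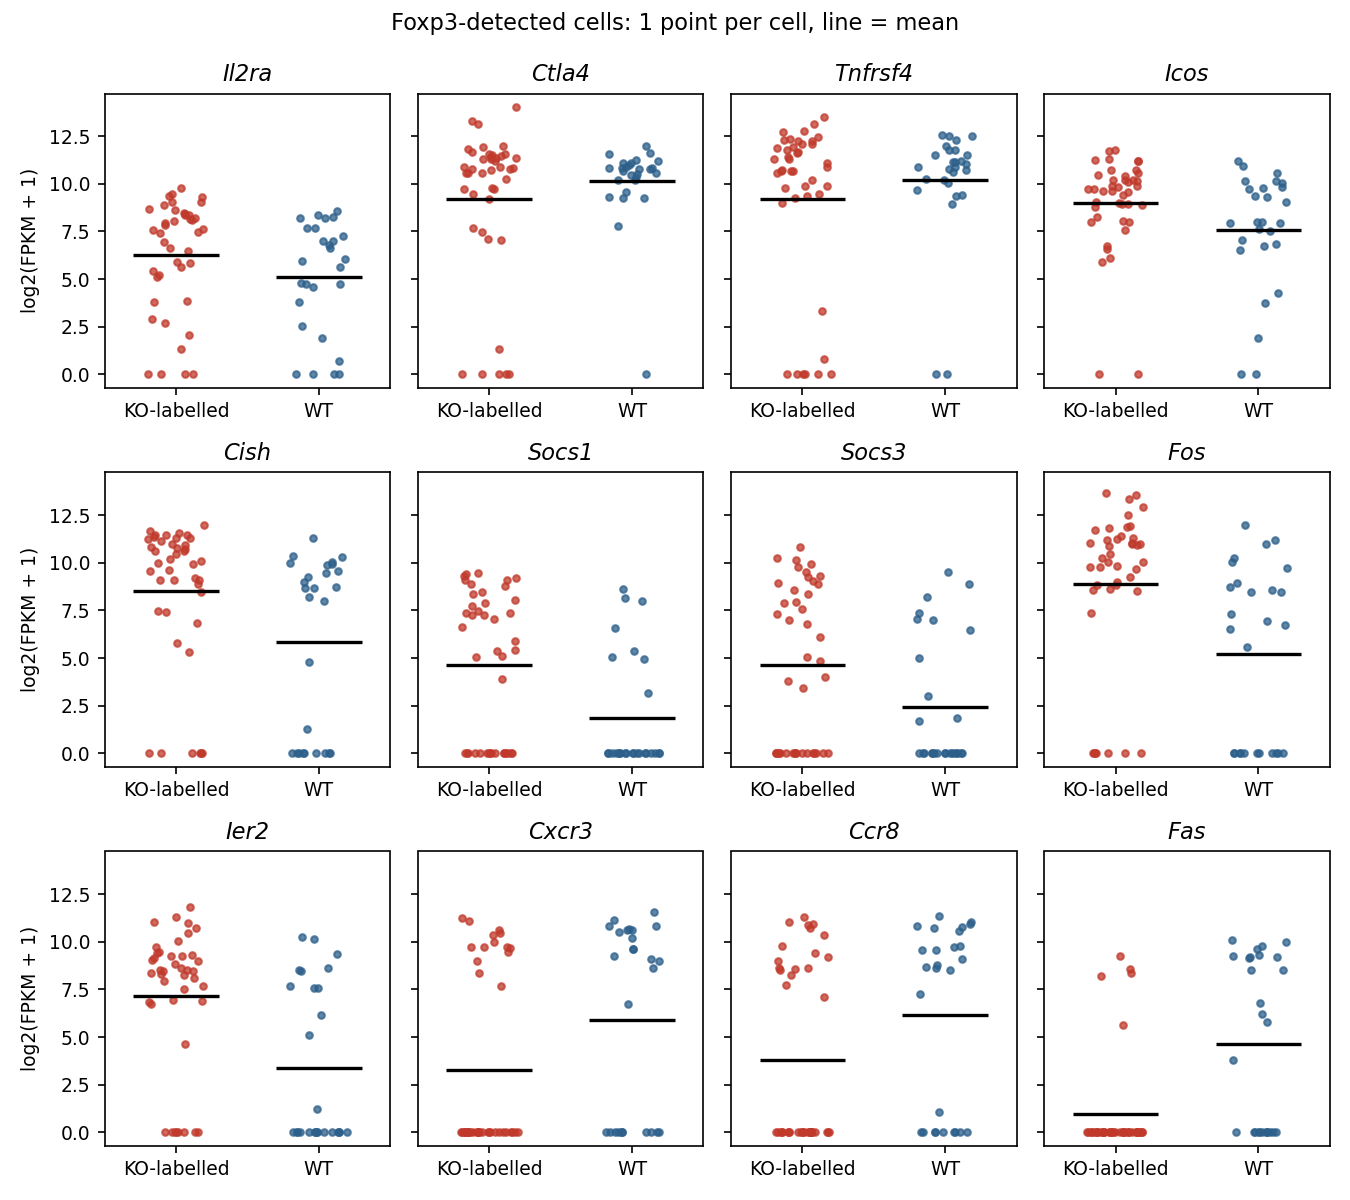
Expression of 12 genes as log2(FPKM + 1), 1 point per cell, in 42 KO-labelled (left) and 27 WT (right) Foxp3-detected cells; lines are means. Cish, Socs1, Socs3, Fos and Ier2 have a smaller share of cells at 0 on the KO-labelled plate. Cxcr3, Ccr8 and Fas have a smaller share at 0 on the WT plate, and the ranges of all 12 genes overlap.

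Icos and Nrp1 stood out among the genes of regulatory T identity by being higher. Of 18 measured core genes, 5 were higher and 13 lower, and the median was -0.54 in all cells, -0.34 in matched cells and 0.075 in cells with at least 2000 genes. Icos, a co-stimulatory receptor that sustains regulatory T cells, was found in 95.2% of the KO-labelled and 92.6% of the WT cells. Its median was 817 FPKM in KO-labelled cells (highest 3506) and 257.6 FPKM in WT cells (highest 2385), and its difference was 1.44. Nrp1, a surface receptor of thymus-derived regulatory T cells in the mouse, was found in 45.2% of the KO-labelled cells (29.8 to 61.3) and 25.9% of the WT cells (11.1 to 46.3), with a difference of 1.32.

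Apart from Il2ra and Icos, the genes that define the cell type had differences between -1 and 0 in all cells. Foxp3 had a difference of -0.48, Ctla4 of -0.92, Tnfrsf4 of -0.96, Tnfrsf18 of -0.50 and Ikzf2 of -0.46. In cells with at least 2000 genes 3 of them turned, with Tnfrsf4 at 0.50, Tnfrsf18 at 0.23 and Ikzf2 at 0.83, while Ctla4 had -0.55 and Foxp3 -0.70. On the log2 of the mean FPKM Ctla4 had 0.51 and Tnfrsf4 0.19. For Ctla4 the medians were 1742 FPKM in KO-labelled cells and 1741 FPKM in WT cells, and the mean difference went with detection in 88.1% of the KO-labelled against 96.3% of the WT cells. The lower end of the list was formed by Cst7, an inhibitor of cathepsins, at -2.22 and Capg, an actin-capping protein, at -1.49, or -0.69 in matched cells. Capg was detected in all 27 WT cells, at 671 FPKM or more, and in 37 of the 42 KO-labelled cells.

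Genes of the tumour-associated effector state had a median slightly below that of all genes. Of 25 measured genes, 18 were lower, 9 of them by 1 or more, and 7 higher, against 69.02% of all genes lower. The median was -0.51 in all cells, -0.22 relative to all genes, -0.37 in matched cells and -0.19 without cycling cells. Ccr8, a chemokine receptor typical of regulatory T cells in tumours, was found in 17 of the 42 KO-labelled cells (40.5%, 25.6 to 56.7) and 18 of the 27 WT cells (66.7%, 46.04 to 83.5). It ran from 0 to 2550 FPKM with a median of 0 in KO-labelled cells, and from 0 to 2663 FPKM with a median of 407 in WT cells. Its difference was -2.37, and -2.65 in matched cells, but -0.73 in cells with at least 2000 genes. The highest cells of both plates reached like levels.

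Tnfrsf9 (4-1BB), a receptor of activated regulatory T cells, had medians of 1310.4 FPKM in KO-labelled and 2157 FPKM in WT cells and a difference of -2.03, or -0.95 in cells with at least 2000 genes. Cd81, a tetraspanin, had -2.79, or -1.96 in matched cells and -1.23 in cells with at least 2000 genes. Klrg1, a receptor of terminally differentiated regulatory T cells, had -1.95, but 0.37 in cells with at least 2000 genes. Prdm1 (Blimp-1), which directs effector differentiation, was found in 33.3% of the KO-labelled cells (19.6 to 49.5) and 66.7% of the WT cells (46.04 to 83.5), with -1.75. Gata3, a factor of tissue regulatory T cells, had -1.72, or -0.80 in cells with at least 2000 genes.

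A few genes of this list ran against it. Il1rl1, the receptor of IL-33, was found in 47.6% of the KO-labelled cells (32.004 to 63.6) and 18.5% of the WT cells (6.30 to 38.1), with a difference of 1.66. Areg, a growth factor made by tissue-repairing regulatory T cells, was found in 38.1% of the KO-labelled and 29.6% of the WT cells and had 1.53. Its highest values were 7023 FPKM in KO-labelled cells and 4083 FPKM in WT cells. Ms4a4b, a membrane protein of T cells, had 2.58, with medians of 476 FPKM in KO-labelled cells and 0 in WT cells.

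Among mediators of suppression the members differed in direction. Of 15 measured genes, 6 were higher and 9 lower, and the median was -0.46. Gzmb, the granule protease granzyme B, was found in 69.05% of the KO-labelled cells (52.9 to 82.4) and 55.6% of the WT cells (35.3 to 74.5). Its median was 1151 FPKM in KO-labelled cells (highest 14817) and 51.5 FPKM in WT cells (highest 21682), its difference was 2.27, and 3.28 in matched cells. Fgl2, a secreted suppressive protein, had -2.53, with medians of 0 in KO-labelled cells and 207.96 FPKM in WT cells. Il10 was found in 35.7% of the KO-labelled and 44.4% of the WT cells, with -0.78, and Entpd1 (CD39), chosen after its values were seen, had -1.32. Il12a and Gzma were at 0 in every selected cell.

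Genes tied to IL-27 and the type 1 state were led by Cxcr3 at the low end. Of 14 measured genes, 3 were higher and 11 lower, and the median was -0.37, near that of all genes. Cxcr3, the chemokine receptor of type 1 regulatory T cells and a known target of IL-27 in the mouse, was found in 14 of the 42 KO-labelled cells (33.3%, 19.6 to 49.5) and 16 of the 27 WT cells (59.3%, 38.8 to 77.6). It ran from 0 to 2421 FPKM with a median of 0 in KO-labelled cells, and from 0 to 3031 FPKM with a median of 506 in WT cells. Its difference was -2.62 in all cells, -2.84 in matched cells and -2.33 in CD4 cells without Foxp3. The wells had 574 FPKM on the KO-labelled plate and 832 FPKM on the WT plate.

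The factor upstream of Cxcr3 did not differ in the same measure. Tbx21 (T-bet) was found in 16.7% of the KO-labelled cells (6.97 to 31.4) and 29.6% of the WT cells (13.8 to 50.2), with a difference of -0.29. Ifng was found in 0 of the 42 KO-labelled cells, which leaves room for 7.14% when 3 cells of the total are taken as the limit and for 8.41% by Clopper-Pearson, and in 3 of the 27 WT cells (11.1%, 2.35 to 29.2). Lag3 had -0.46 in all cells, -0.999 in matched cells and 1.02 in cells with at least 2000 genes, so its direction turned. Maf had 0.11. Nfil3, which promotes IL-10 and was at the high end, had 0.57.

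The share of cells with several co-inhibitory receptors was lower on the KO-labelled plate at 2, 3 and 5 receptors and alike at 4, with overlapping intervals. Of Pdcd1 (PD-1), Ctla4, Tigit, Lag3 and Havcr2 (TIM-3), at least 3 were found in 19 of the 42 KO-labelled cells (45.2%, 29.8 to 61.3) and 19 of the 27 WT cells (70.4%, 49.8 to 86.2). At least 4 were found in 35.7% of the KO-labelled (21.6 to 51.97) and 33.3% of the WT cells (16.5 to 53.96). At least 2 were found in 88.1% of the KO-labelled and 96.3% of the WT cells, and all 5 in 9.52% and 18.5%. The share with 3 or more in matched cells was 40% on the KO-labelled plate and 68% on the WT plate. In cells with at least 2000 genes the share with 3 or more was 64% on the KO-labelled plate and 76.2% on the WT plate. The list of 16 receptors had 4 higher and 12 lower genes and a median of -0.56, or -0.89 in matched cells.

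Pdcd1 was the receptor of these 5 with the lowest difference. It was found in 35.7% of the KO-labelled cells (21.6 to 51.97) and 55.6% of the WT cells (35.3 to 74.5), with medians of 0 in KO-labelled cells and 94.9 FPKM in WT cells and a difference of -1.80, or -0.63 without cycling cells. Tigit, found in 88.1% of the KO-labelled and 88.9% of the WT cells, had -0.65. Havcr2, found in 30.95% of the KO-labelled and 33.3% of the WT cells, had 0.12. Lilrb4, at the high end of the list, had 0.90 with 33.3% of cells positive on each plate.

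**Figure D4:**
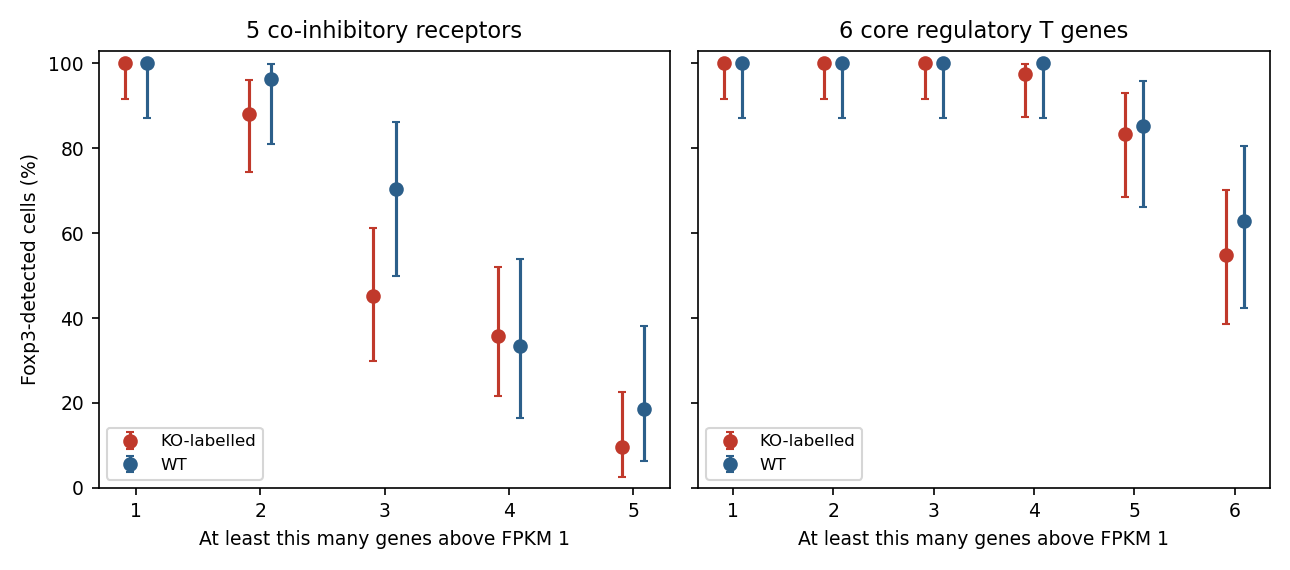
Share of Foxp3-detected cells that carried this many or more of 5 co-inhibitory receptors (left) and of 6 core regulatory T genes (right) above 1 FPKM, KO-labelled points left of WT points, with 95% Clopper-Pearson intervals. The shares lie farthest apart at 3 receptors, 45.2% of the KO-labelled and 70.4% of the WT cells. KO-labelled and WT intervals overlap at every count in both panels.

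The list of immediate-early and heat shock genes had the highest median. Immediate-early genes are switched on within minutes of many stimuli, and the list also holds the chaperone genes Hspa8 and Dnajb1, the stress gene Gadd45b and the activation marker Cd69. Of 24 measured genes, 21 were higher, 13 by 1 or more, and 0 lower by 1, with a median of 1.09 in all cells and 0.92 in matched cells. The same list had a median of 1.48 in the CD4 cells without Foxp3 and 1.10 between the wells. The difference was thus also seen in cells in which Foxp3 was not detected. Its part in the other differences was not tested.

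Ier2, a nuclear early-response protein, had the highest difference of all genes compared, 3.78. It was found in 34 of the 42 KO-labelled cells (80.95%, 65.9 to 91.4) and 12 of the 27 WT cells (44.4%, 25.5 to 64.7), with medians of 348.7 FPKM in KO-labelled cells (highest 3578) and 0 in WT cells (highest 1232). Fos, a subunit of AP-1, was found in 83.3% of the KO-labelled cells (68.6 to 93.03) and 59.3% of the WT cells (38.8 to 77.6). Its median was 1149.5 FPKM in KO-labelled cells (highest 12798) and 105.5 FPKM in WT cells (highest 4059), and its difference was 3.69. The KO-labelled well had 504 FPKM of Ier2 and 3601 FPKM of Fos, and the WT well had 45.9 FPKM of Ier2 and 1365 FPKM of Fos. Ier2 lies on chromosome 8 from base 84661331 to 84662852, and Il27ra on the same chromosome from 84030294 to 84042589. Smim7, Snx20, Zfp868 and Rrad, named below, lie on it too, and the other end genes with a known position do not. The part of this position in the differences was not tested.

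Ppp1r15a (GADD34), which restarts translation after stress, followed with 3.22. Its median was 609 FPKM in KO-labelled cells (highest 9429) and 120.1 FPKM in WT cells (highest 1731). Fos, Ier2 and Ppp1r15a, a combination chosen after seeing the values, were all found in 66.7% of the KO-labelled cells (50.5 to 80.4) and 33.3% of the WT cells (16.5 to 53.96). In CD4 cells without Foxp3 they were all found in 54.8% on the KO-labelled plate and 19.2% on the WT plate. The low end of the list was formed by Nfkbia, an inhibitor of NF-kB, at -0.98 and Jund at -0.47.

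Ppp1r15a held the CREB letters 12 bases before its start, in capitals in the 250 bases that precede it, which are shown because the gene was among the highest.
Ppp1r15a, chr7:45526269-45526518, - strand: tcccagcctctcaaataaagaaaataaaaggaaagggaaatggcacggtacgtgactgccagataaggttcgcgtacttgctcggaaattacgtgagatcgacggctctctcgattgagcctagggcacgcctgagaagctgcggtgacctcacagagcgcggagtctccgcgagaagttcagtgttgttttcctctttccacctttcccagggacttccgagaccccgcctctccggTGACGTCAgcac
These letters occurred in 1.79% of all windows, in 2 of 8 windows of the 12 highest genes (25%, Ppp1r15a and Zfp868) and in 0 of 10 windows of the 12 lowest. Fos, with a higher difference, held neither motif in its window, and Ier2 had no window in the table.

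NF-kB genes showed no common direction. Of 15 measured genes, 6 were higher and 9 lower, and the median was -0.08, with 9 genes above the -0.29 of all genes. The nuclear inhibitors Nfkbid and Nfkbiz both had 1.71, with medians of 71.3 FPKM in KO-labelled and 3.08 FPKM in WT cells for Nfkbid, and of 408 FPKM in KO-labelled and 123.3 FPKM in WT cells for Nfkbiz. Nfkbib had -1.29 and Icam1, an adhesion molecule, -1.43, or -0.81 in matched cells. Among 12 co-stimulatory receptors 9 were lower, and the median was -0.47, while Tnfrsf25 (DR3) had 1.55 and Cd27 had -1.55, or -0.93 without cycling cells. Of 9 measured helper lineage genes, 4 were higher and 5 lower, and Tnf, found in 30.95% of the KO-labelled and 11.1% of the WT cells, had 1.44.

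Homing genes lay on both sides of 0, with most above the median of all genes. Of 14 chemokine receptor genes, 9 were higher and 5 lower, against 30.98% of all genes higher. Their median was 0.20, and 10 of them lay above the -0.29 of all genes. Ccr4 was found in 54.8% of the KO-labelled cells (38.7 to 70.2) and 29.6% of the WT cells (13.8 to 50.2), with a difference of 1.39, and Ccr2, the receptor of monocyte chemoattractants, had 1.23, or 0.87 in cells with at least 2000 genes. Of 15 naive and central memory genes, 10 were higher, with a median of 0.34 and of 0.83 in matched cells. Tcf7, a factor of that state named here after its values were seen, was found in 5 of the 42 KO-labelled cells (11.9%) and 0 of the 27 WT cells, a limit of 11.1% for 3 cells of the total and of 12.8% by Clopper-Pearson. Adhesion genes were 8 higher and 7 lower, with Emb (embigin) at 1.21, or 0.54 in cells with at least 2000 genes, and Cd44 at -1.22, or -0.92 without cycling cells.

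Interferon-stimulated genes centred near 0. Of 29 measured genes, 12 were higher and 17 lower, and 21 lay above the median of all genes. The list median was -0.05 in all cells and 0.38 in matched cells, against -0.29 and -0.09 for all genes. Iigp1, an interferon-induced GTPase, had 1.51, and Bst2 (tetherin) had -1.90, or -0.99 in cells with at least 2000 genes. The 16 genes of MHC class I and peptide loading had a median of -0.27 in all cells and 0.13 in matched cells, with H2-Q7 at 0.57 and the proteasome activator Psme2 at -1.29. The 16 genes of T cell receptor signalling had a median of -0.50 in all cells and -0.12 in matched cells, with Cd4 at -1.56 and Cd247, the CD3 zeta chain, at -1.33, or -0.67 in cells with at least 2000 genes. Those 3 medians moved toward or past 0 at like gene number.

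Glycolysis genes had the lowest median of the programme lists. Of 17 measured genes, 16 were lower, 10 by 1 or more, with a median of -1.13 in all cells and -0.65 in matched cells. Pgam1, a mutase late in glycolysis, was found in 47.6% of the KO-labelled cells (32.004 to 63.6) and 70.4% of the WT cells (49.8 to 86.2), with a difference of -2.51. Slc16a3, which exports lactate, had -2.31, with medians of 0 in KO-labelled cells and 111.9 FPKM in WT cells. The 1 gene above 0 was Pfkl, at 0.30. In CD4 cells without Foxp3 the median of the list had the other sign, 0.83.

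All 36 cell cycle genes were lower on the KO-labelled plate, 19 of them by 1 or more, with a median of -1.01. Cells with at least 5 of 10 mitotic genes numbered 2 of 42 on the KO-labelled plate (4.76%, 0.58 to 16.2) and 5 of 27 on the WT plate (18.5%, 6.30 to 38.1). Without these 7 cells the median of the list was 0.00. The 10 genes that picked the cells belong to the list, so a move of its median toward 0 was built in. Ube2c, which drives exit from mitosis, had -2.02 in all cells and -0.98 without the 7 cells. Ccnb1, a mitotic cyclin found in 1 KO-labelled and 6 WT cells and one of the 10 genes, had -1.57 in all cells and -0.09 without the 7 cells. The glycolysis median without the same cells was -0.78.

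Beyond the lists, the lowest difference was that of Fas, a death receptor. Fas was found in 5 of the 42 KO-labelled cells (11.9%, 3.98 to 25.6) and 15 of the 27 WT cells (55.6%, 35.3 to 74.5). It ran from 0 to 621 FPKM with a median of 0 in KO-labelled cells, and from 0 to 1096 FPKM with a median of 53.8 in WT cells. The difference was -3.68, and -3.87 in matched cells. The wells differed less, with 92.7 FPKM on the KO-labelled plate and 152.9 FPKM on the WT plate.

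The other genes at the low end served varied functions. They were Bnip2 (-3.35), Rilpl2 (-3.29), the nucleosome-binding Hmgn2 (-3.24), the sorting nexin Snx20 (-3.21), the small GTPases Rab37 (-3.19) and Rab4b (-2.92), 0610031J06Rik (-3.07), Sfrs18 (-3.05), Smim7 (-2.94) and Csk (-2.88), the kinase that holds Lck inactive. Nkg7, a granule protein of cytotoxic cells, had -3.00 and was found in 19.05% of the KO-labelled and 40.7% of the WT cells. At the high end, besides the genes given above, stood H60b (2.43), a ligand of the NKG2D receptor, 4930470H14Rik (2.42), the zinc finger gene Zfp868 (2.33) and Rrad (2.31), a Ras-related GTPase. All 24 kept their direction in matched cells, as the rule that named them required.

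H60b was higher on the KO-labelled plate in CD4 cells and wells, with overlap between the cells. It was found in 57.1% of the KO-labelled (40.96 to 72.3) and 25.9% of the WT cells (11.1 to 46.3), with highest values of 503 and 43.2 FPKM, and its difference was 1.69 in matched cells. In the wells it had 75.7 FPKM on the KO-labelled plate and 6.67 FPKM on the WT plate, and in cells without Foxp3 its difference was 2.20.

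Set beside CD4 cells without Foxp3, 31 on the KO-labelled plate and 52 on the WT plate, some differences were shared and some had the other sign. Cish had 2.70 with Foxp3 and 3.47 without, Il2ra 1.20 and 1.29, Ier2 3.78 and 4.07, and Socs1 2.80 and 1.71. Socs3 had 2.18 with Foxp3 and -1.38 without. Icos had 1.44 with Foxp3 and -0.05 without, Gzmb 2.27 and -0.02, Fas -3.68 and -0.29, and Ccr8 -2.37 and 2.30. The median of all genes was -0.39 with Foxp3 and 0.34 without, and the cells without Foxp3 had medians of 2123 genes on the KO-labelled plate and 1891 on the WT plate. The difference between the kinds of cell was not tested.

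**Figure D5:**
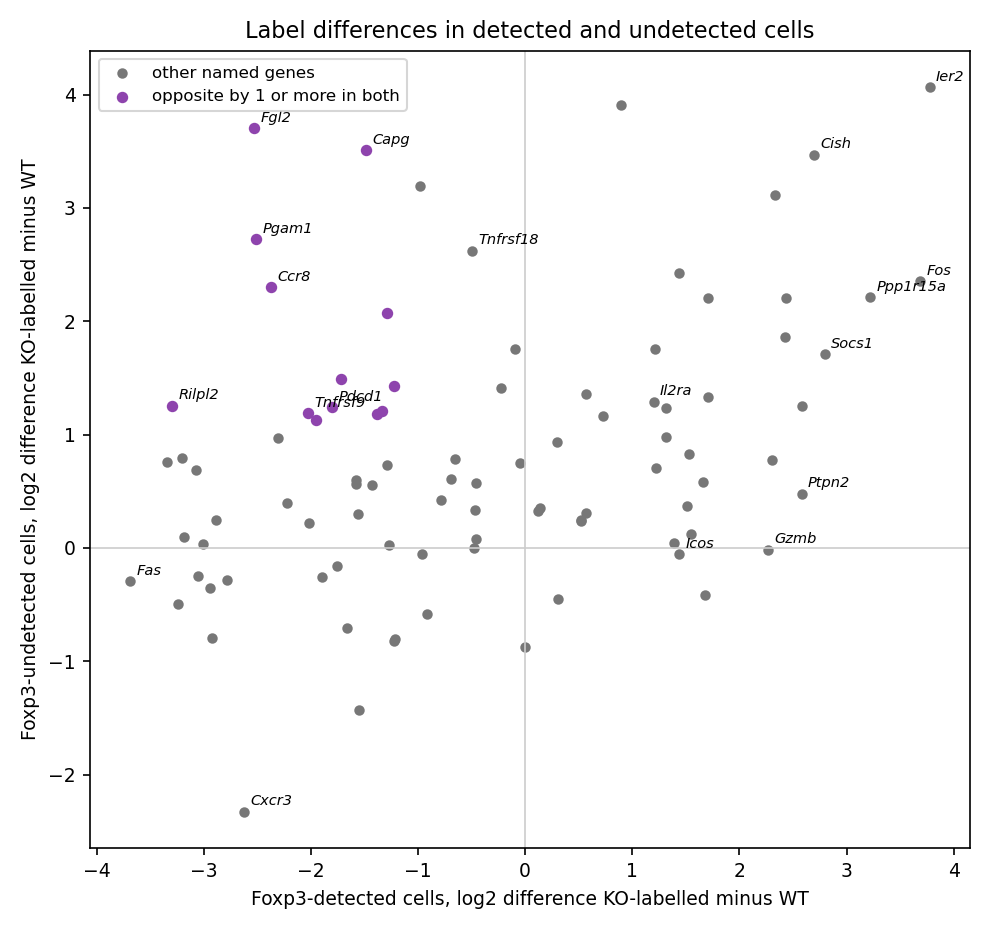
Log2 difference, KO-labelled minus WT, of the 93 named genes in Foxp3-detected cells (x) and in CD4 cells without Foxp3 (y). Purple points are the 13 genes with differences of 1 or more of opposite sign; Ier2, Cish, Fos and Socs1 lie high on both axes and Cxcr3 low on both.

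Markers of other cell types were low in most cells. Of the CD8 lineage list, 5 of 11 genes were measured, with a median of -1.10, and Klrd1, Klrk1, Gzmk and Eomes were at 0 in every selected cell. Its summed level ran from 0 to 14659 FPKM in KO-labelled cells and from 0 to 10349 FPKM in WT cells, with medians of 4.69 FPKM in KO-labelled and 698 FPKM in WT cells. Nkg7 (-3.00) and Ccl5 (-2.47) had the lowest differences in it, and at least 3 of its genes were found in 6 KO-labelled and 9 WT cells. Macrophage, dendritic, B cell, NK, neutrophil, stromal and gamma-delta T cell lists had median sums between 0 and 63.3 FPKM on either plate. Single cells reached more, with sums of up to 499.8 FPKM in KO-labelled and 2499.8 FPKM in WT cells for the macrophage list, 932 FPKM in KO-labelled and 1040 FPKM in WT cells for the dendritic list, and 822 FPKM in KO-labelled and 596 FPKM in WT cells for the neutrophil list. The B cell list reached 413 FPKM in KO-labelled and 643.5 FPKM in WT cells, and the NK list 690 and 571 FPKM. Csf1r, Cd14, Ms4a1, Flt3, Ncr1, S100a8 and Pdgfra were at 0 throughout. Other genes of these lists were found in at least 10% of the cells of 1 plate. These were Apoe, Zbtb46, Xcr1, Cd74, Cd79b, Cxcr2, Csf3r, Mmp9 and Pecam1. Of 10 melanoma genes 1 was measured, Tyr, above 1 FPKM in every selected cell at 2.15 to 20.04 FPKM in KO-labelled and 2.35 to 15.7 FPKM in WT cells, and Sox10 and Mitf were at 0. The summed melanoma level reached 557 FPKM in KO-labelled and 55.96 FPKM in WT cells. At least 3 melanoma genes were found in 1 KO-labelled and 0 WT cells. The part of the CD8 lineage genes in the differences above was not tested.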

How the data were processed

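The deposited values are FPKM per gene and cell after TMM scaling of the libraries by the authors. Per the submitters' processing notes the tools were RSEM and Bowtie with the mm10 build, and versions are not given in the sources used here. The table holds 23420 gene symbols and 380 columns, of which 0 were left without a label, and 0 pairs of selected cells were identical. Reads per cell were not estimated, because the estimator tried failed on simulated data; the number of genes above 1 FPKM stood in for depth.

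Computed from these values with Python 3.11.15, pandas 2.3.3 and scipy 1.17.1 were means of log2(FPKM + 1), shares above 1 FPKM with 95% Clopper-Pearson intervals, and 25 pairs matched on the number of genes by optimal assignment. Only counting error is covered by the intervals. With 1 plate per label no test was possible. A gene counted as past the fold at a log2 difference of 1 or more, among genes above 1 FPKM in 20% of the cells of 1 plate (10% for the lists). The mean difference was tested by multiplying known folds into genes of the real selected cells, with their labels shuffled. The matching was checked for its limit on gene number and for cells used more than once. Pass criteria were loosened after failing, first to accept changed genes without a shift where they were undetected. Later the demand that recovery of direction rise strictly with fold size was dropped for a fixed lower limit. Promoters are from RefSeq. Some genes that the rule below names are not reported here.

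Named are the 12 genes with the highest and the 12 with the lowest difference that kept their direction in matched cells, Il27ra, the 4 markers, the genes of the receptor counts, and the 2 highest and 2 lowest genes of each of 19 lists. Exceptions are marked as chosen after their values were seen. Further genes are named as chosen after their values were seen where they are not covered by this rule: Jak1, Il2rg, Il10, Tbx21, Maf and Ccl5. The members and all 28 lists, which overlap, were chosen with earlier results of these data known. Alternatives changed the cell and gene filters, pseudocount, scaling and summary, 13 for differences and 6 for shares. With no replicates, a difference was taken to have moved when it changed by more than a factor of 1.5.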

Additional observations from a re-analysis of the deposited data

Results flagged for a closer look

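For 13 named genes the difference, KO-labelled minus WT, was 1 or more in size and of opposite sign in Foxp3-detected cells and in CD4 cells without Foxp3. Each kind of cell comes from the same 2 plates, and whether the differences themselves differ was not tested. Cells without Foxp3 may include regulatory T cells in which it was missed. Pgam1 had -2.51 with Foxp3 and 2.73 without. Fgl2 had -2.53 and 3.71, Ccr8 -2.37 and 2.30, and Capg -1.49 and 3.51, given with Foxp3 first. Rilpl2 had -3.29 and 1.26, Tnfrsf9 -2.03 and 1.19, Klrg1 -1.95 and 1.12, and Pdcd1 -1.80 and 1.24. Gata3 had -1.72 and 1.49, Il2rb -1.38 and 1.18, Cd247 -1.33 and 1.21, Psme2 -1.29 and 2.07, and Cd44 -1.22 and 1.43. The median of all genes also had opposite signs, -0.39 with Foxp3 and 0.34 without. The numbers of genes went the same way, with medians of 2267.5 in KO-labelled and 2404 in WT cells with Foxp3, and of 2123 in KO-labelled and 1891 in WT cells without it. The part of gene number in these genes was not tested.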

How the results depend on the processing

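The shares of genes past a log2 difference of 1, 3.56% higher and 21.0% lower, depended on the setting. They were 9.77% and 13.6% in matched cells, 8.37% and 9.55% after subtraction of the median, 7.25% and 35.97% with a pseudocount of 0.1, and 0.81% and 5.23% with a pseudocount of 10. Among genes in 40% of a plate they were 4.69% and 29.1%, and with no gene filter 1.61% and 9.40%. The higher share alone moved past 1.5 times in cells with at least 2000 genes (7.57%), with 1000 to 4000 genes (5.60%), without cycling cells (7.75%) and with the log2 of the mean FPKM (8.92%). The sign of a named gene could not change with no gene filter or with genes in 40% of a plate. Subtraction of the median, -0.39, shifted every gene alike by less than 1, so a gene past 1 could not change sign. Nor could any sign change when 1 of Il2ra, Ctla4 and Tnfrsf4 was required beside Foxp3, which kept all 42 KO-labelled and 27 WT cells. For genes named at the high and low ends, the rule itself required the same sign in matched cells. Within these limits, of 68 named genes past 1, 64 kept their sign under all 13 alternatives. The others were Klrg1, at 0.37 in cells with at least 2000 genes and 0.19 with the log2 of the mean FPKM, and, under that summary, Ccr4 (-0.088), Dgka (0.13) and Icam1 (0.67). Fewer stayed at 1 or more in the same direction: 56 in cells with at least 2000 genes, 63 in matched cells, 63 without cycling cells, 60 after subtraction of the median, 47 with a pseudocount of 10 and 37 with the log2 of the mean FPKM. By more than a factor of 1.5, 27 moved in cells with at least 2000 genes, 13 in matched cells, 44 with a pseudocount of 0.1, 43 with a pseudocount of 10 and 56 with the log2 of the mean FPKM. The cause was not tested. The core regulatory T median was 0.075 in cells with at least 2000 genes, where 64% of the KO-labelled cells had 3 or more receptors, and the cell cycle median was 0.00 without cycling cells. No paired analysis was possible because each label has 1 plate and cells carry no shared numbers. Zeros are frequent, so a gene not found in a cell may still be expressed there.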

Other observations

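On the CD8 plates, which hold no selected cell, Foxp3 was above 1 FPKM in 1 of 80 KO-labelled cells (1.25%, 0.03 to 6.77), at 1276 FPKM and together with Il2ra. It was detected in 0 of 72 WT cells, a limit of 4.17% for 3 cells of the total and of 4.99% by Clopper-Pearson. Within the CD4 plates, cells with Foxp3 minus cells without it had a median difference over all genes of 0.01 on the KO-labelled plate and 0.77 on the WT plate.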
